A study of Homo sapiens with 12 samples.

Results

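The induction of oncogenic RAS in the absence of knockdown was examined 5 days into oncogene-induced senescence (OIS). The comparison used 6 of the 12 RNA-seq libraries of the series, 3 labelled induced (vector/4OHT) and 3 labelled non-induced (vector), which were chosen by their sample labels and not by any measured value. All were made from IMR90 ER:RAS cells, a line of human lung fibroblasts with RAS joined to the hormone-binding region of the estrogen receptor (ER), and both groups are named for a control vector that the study describes as non-targeting, with no shRNA named in their labels. The vector/4OHT cells received 100 nM 4-hydroxytamoxifen (4OHT), which activates the fusion protein, and the vector cells did not. The growth notes give passage 13, 7 days in culture and a change of medium on day 4 for both groups. The other 6 libraries carried an shRNA against XPO7 and were also treated with 4OHT (shXPO7_3/4OHT and shXPO7_5/4OHT). They entered the fit, where they shared in the expression filter and the estimate of spread. They played no part in choosing the switched-on and lost genes, but they did share in the fit that made the calls. Their levels are given as a description. Whether the 3 libraries of each group are separate cultures is not stated, so the spread that p-values rest on may be technical.

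In OIS, sustained RAS and MAPK signalling drives normal fibroblasts into a stable arrest of the cell cycle. The cells enlarge, remodel their chromatin and secrete cytokines, growth factors and proteases, which together are called the senescence-associated secretory phenotype (SASP). The arrest and the SASP are the best-known parts of the response, and the description here dwells on the genes outside them.

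The deposited values are read counts for each gene. Totals were 31467250 to 39359869 in vector and 28534141 to 49844320 in vector/4OHT, and reads on mitochondrially encoded genes made up 3.47% to 3.94% of the counts. Levels are in CPM after TMM scaling, which are relative to the scaled read total of a library and not to the number of cells. A lower level per cell and fewer cells that express a gene therefore cannot be told apart. The TMM factors were 1.0295 to 1.0545 in vector and 0.9855 to 0.995 in vector/4OHT. Genes with a Benjamini-Hochberg adjusted p under 0.05 in edgeR's quasi-likelihood test are referred to as called. With 3 libraries against 3, an exact two-sided permutation test of a single gene cannot give a p under 0.1, the value of any gene whose groups do not overlap. Vector replicate T stood apart from the other vector libraries on the second principal component, which held 9.5% of the variance against 82.1% for the first, along which the groups separated. The log ratio of a library to the mean increased with transcript GC content in vector T (Spearman correlation 0.40 across genes, which are no independent replicates) and decreased in vector C (-0.215).

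A large part of the transcriptome differed between vector/4OHT and vector. No library of cells without ER:RAS was treated with 4OHT, so activation of RAS and any other effect of the drug cannot be told apart. Of 15284 genes tested among 62069 in the table, 50.9% were called, 24.8% higher and 26.1% lower in vector/4OHT. Without vector replicate T, 7273 genes were called, 3598 higher and 3675 lower, against 3793 and 3984 with it. The median change over the genes tested was -0.0068 on the log2 scale. With upper-quartile factors in place of TMM that median was -0.105, and 38.3% of calls were higher, against 48.8%. Rises of at least 1 on the log2 scale were fewer (1036 genes, 6.78%) than falls of that size (1537 genes, 10.1%). At a size of at least 4 the order was the other way, with 103 rises (0.674%) and 24 falls (0.157%).

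HRAS was at 1091, 987 and 879 CPM in vector replicates T, A and C, and at 1852, 1931 and 2004 CPM in vector/4OHT replicates T, A and B. The groups did not overlap, as was so for 63.2% of the genes tested, and the log2 fold change was 0.97 (standard error 0.105, adjusted p = 8.71e-06). ESR1, the gene of the estrogen receptor, was at 134 to 171 CPM in vector and 297 to 324 CPM in vector/4OHT, which is 1.08 higher on the log2 scale (adjusted p = 6.40e-06). Reads from the ER:RAS fusion and from the cell's own copies of these genes cannot be told apart in the counts. DUSP6, a phosphatase that dampens ERK, had a mean of 43.5 CPM (SD 0.664, n = 3) in vector and rose to 488 CPM (SD 5.11, n = 3). SPRY4, another feedback inhibitor of RAS signalling, rose by 2.37 on the log2 scale, and CDKN1A, which encodes p21CIP1, by 1.19.

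The fibroblast identity of the cells was visible in both groups. All 13 fibroblast markers examined had at least 1 CPM. Their summed level was 24474 to 28218 CPM in vector and 17174 to 18636 CPM in vector/4OHT. Of the 13, 8 were called lower, beside 26.1% of all genes tested. DCN, which encodes the matrix proteoglycan decorin, fell from 926, 1027 and 1005 CPM to a mean of 95.6 CPM. Leukocyte markers summed to 0.312 to 0.432 CPM in vector and 1.39 to 1.81 CPM in vector/4OHT, and CD3E and TYROBP had no count in the 6 libraries. Most of that rise lay in ITGAX, an integrin, at a mean of 0.128 and 0.976 CPM. The endothelial markers PECAM1 and CDH5 also had no count, while their list summed to 15.7 to 16.2 CPM in vector and 14.9 to 17.2 CPM in vector/4OHT. Within that list the receptor TEK fell by 0.98 on the log2 scale, from a mean of 12.4 to 6.31 CPM, and the related TIE1 rose by 2.55, from 1.06 to 6.21 CPM. Epithelial markers went from 69.1 to 84.6 CPM down to 40.1 to 46.3 CPM in sum, with KRT5 and KRT14 at 0. Among them KRT19, which these fibroblasts expressed, fell from 36.4, 34.1 and 30.2 CPM to 1.5, 2.30 and 2.22 CPM. EPCAM and KRT8 fell by 0.89 and 0.63 on the log2 scale. KRT18, at 29.1 to 35.3 CPM in vector, was not called, with a log2 fold change of 0.07. Muscle markers went from 3.71 to 4.18 CPM down to 0.574 to 0.887 CPM in sum, with MYOD1 and MYOG at 0. Neuronal and glial markers went from 7.62 to 8.52 CPM up to 10.7 to 12.2 CPM in sum, with SOX10 at 0. Of this list only SYN1 was called, from a mean of 1.57 to 3.68 CPM, and MAP2 and TUBB3 were not.

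**Figure D1:**
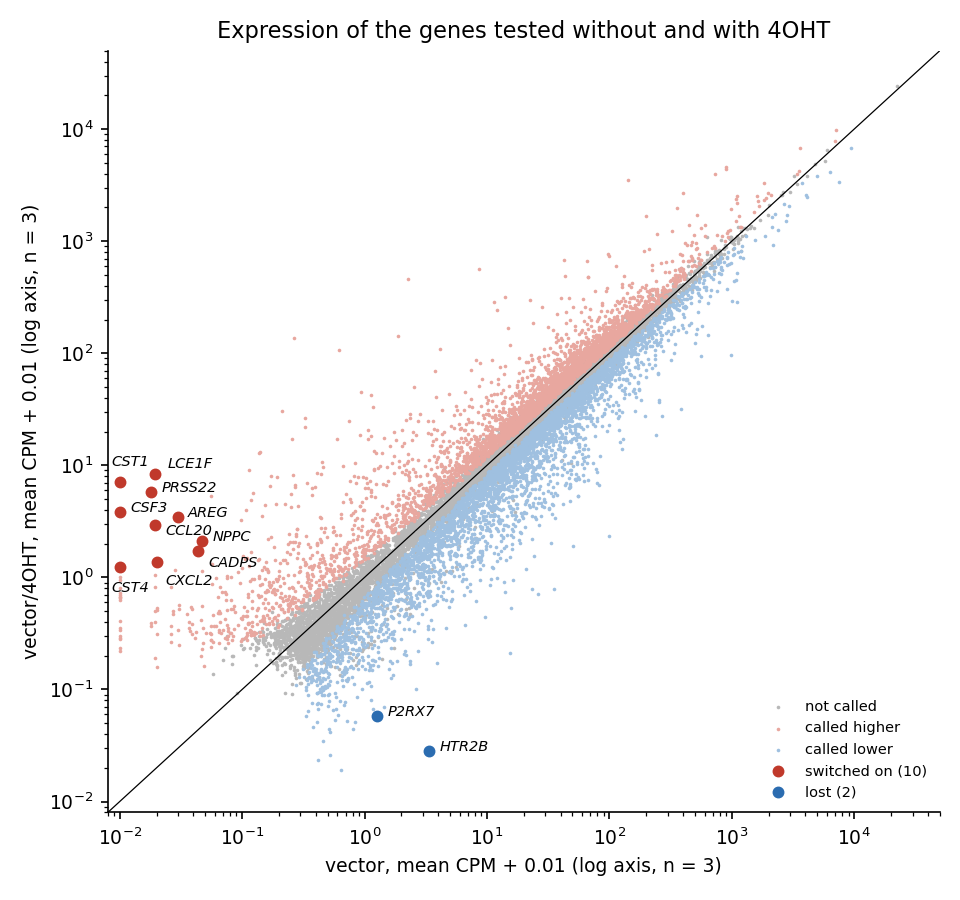
Mean level of each of the 15284 genes tested in vector (horizontal) and vector/4OHT (vertical), in CPM plus 0.01 on log axes, n = 3 libraries each. The 10 switched-on genes (red) lie at the left edge, near no expression in vector, and the 2 lost genes (blue) at the lower edge.

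Genes switched on from near zero were taken as a class defined as under 0.1 CPM in every vector library and at least 1 CPM in every vector/4OHT library. These 10 were all protein coding. Because their own values chose them, the figures that follow are a description and not a test. The vector libraries held 43281 genes under 0.1 CPM in every library, and these 10 came from among them. All 10 were above every vector library in each of the 6 shRNA/4OHT libraries, which the rule did not use although they are set against the same vector libraries, and 9 of the 10 had at least 1 CPM in all 6.

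Of the 10 genes, 4 are known from epithelia. LCE1F (ENSG00000240386; chromosome 1, 152776372 to 152776728 on GRCh38), which encodes a late cornified envelope protein of the epidermis, had 1 count over the 3 vector libraries and 964 over the 3 vector/4OHT libraries. Its levels were 0, 0 and 0.0283 CPM in vector and 8.11, 8.40 and 8.67 CPM in vector/4OHT, a ratio of 917 (95% counting interval 164 to 36271). CST1, which encodes the secreted cysteine protease inhibitor cystatin SN, had no count in vector and 7.02, 6.02 and 8.04 CPM in vector/4OHT, so it was at least 262-fold higher against a floor of 3 counts over the group. CST4, which encodes the related cystatin S, also had no count in vector and was at 1.28, 1.13 and 1.25 CPM in vector/4OHT, at least 44.7-fold higher. The 2 cystatin genes are near-identical neighbours on chromosome 20, and how reads that match both were counted is not given, so the split between them is uncertain. PRSS22, a serine protease of airway epithelium, had 1 count in vector and 660 in vector/4OHT, with levels of 5.84, 5.42 and 5.91 CPM in the latter. These intervals and floors cover counting error only.

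A further 5 encode secreted signals. CSF3 (ENSG00000108342; chromosome 17, 40015361 to 40017813), the granulocyte colony-stimulating factor, had no count in vector and was at 4.18, 3.61 and 3.65 CPM in vector/4OHT, at least 138-fold higher. CCL20, a chemokine for cells that bear CCR6, had 1 count in vector and was at 3.0, 3.26 and 2.60 CPM in vector/4OHT. CXCL2, a neutrophil chemokine, had 1 count in vector and was at 1.64, 1.31 and 1.15 CPM in vector/4OHT. AREG, the EGF receptor ligand amphiregulin, rose from 2 counts to 387, a ratio of 184 (95% counting interval 50.6 to 1526). NPPC, the precursor of C-type natriuretic peptide, rose from 4 counts to 237, a ratio of 56.4 (21.7 to 209). CADPS, a factor that primes dense-core vesicles for release, rose from 4 counts to 201, a ratio of 47.8 (18.4 to 177). CST4 was the gene among the 10 that went under 1 CPM in shRNA/4OHT libraries, to 0.36 CPM in the lowest.

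The promoters of the switched-on genes were searched for 5 motifs, of which NF-kB sites are a known feature of chemokine genes. RefSeq promoters on GRCh38.p14 were at hand for 6 of the 10 (CXCL2, AREG, CCL20, NPPC, CADPS and LCE1F). The NF-kB motif, on either strand, occurred in 3 of the 6, in CXCL2, CCL20 and NPPC, beside 13.7% of the 11113 promoters of genes tested and 11.1% of all 27305. The promoters of CXCL2 and CCL20 are shown because each holds more than 1 match, as the 250 bases before the start read in the direction of the gene, with matches in capitals. CXCL2 is on chr4:74099196-74099445, minus strand, and CCL20 on chr2:227813592-227813841, plus strand.
CXCL2: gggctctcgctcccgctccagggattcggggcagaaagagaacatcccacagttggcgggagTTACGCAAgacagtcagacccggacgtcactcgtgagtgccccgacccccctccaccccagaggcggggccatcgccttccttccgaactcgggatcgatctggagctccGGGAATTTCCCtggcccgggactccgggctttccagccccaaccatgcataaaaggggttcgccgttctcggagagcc
CCL20: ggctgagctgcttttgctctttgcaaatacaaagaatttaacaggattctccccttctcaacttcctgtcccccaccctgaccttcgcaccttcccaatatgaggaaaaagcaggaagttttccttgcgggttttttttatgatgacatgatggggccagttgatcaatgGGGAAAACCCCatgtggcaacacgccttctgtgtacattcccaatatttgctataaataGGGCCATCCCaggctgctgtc
In CXCL2 the capitals mark overlapping NF-kB matches that begin at positions -78 and -77 from the start, and a C/EBP match (TTGCNNAA, found on the other strand) at -188. In CCL20 they mark overlapping NF-kB matches at -80 and -79, and a further one at -21. A match is a description of the letters and not of binding. Of the 103 genes with a rise of at least 4 on the log2 scale, 62 had a promoter. Of these, 14 held the NF-kB motif (22.6%), 11 the C/EBP motif (17.7%) and 8 the AP-1 motif (TGANTCA, 12.9%). C/EBP was in 5.99% of the promoters of genes tested and 9.13% of all promoters, and AP-1 in 4.11% and 6.6%. The neighbouring genes LCE2A, LCE2B and LCE2C shared an NF-kB and a C/EBP match of the same letters, and each was counted among the 14 and the 11. CHR (TTTGAA), a motif of cell cycle genes, was in 8.06% of the 62 (8.51% of genes tested), and E2F (TTTCCCGC or TTTGGCGC) in 0% (2.94%). Of 24 genes with a fall of at least 4, 15 had a promoter. NF-kB, C/EBP, AP-1 and CHR were each in 2 of those 15 (13.3%), and E2F in 0%.

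The values just outside the class show how far its edge decides membership. TBX21, a transcription factor of T cells, had no count in vector and 0.819, 0.815 and 1.17 CPM in vector/4OHT. IVL, which encodes involucrin, another cornified envelope protein, had no count in vector and 0.983, 1.38 and 1.21 CPM. FASLG, the ligand of the death receptor FAS, had no count in vector and 0.929, 1.06 and 0.988 CPM. On the other side of the rule, PDZD2 reached 0.123 CPM in a vector library and was at 7.96 to 9.67 CPM in vector/4OHT, and CSF2, a colony-stimulating factor, reached 0.121 CPM and was at 4.38 to 5.60 CPM. With near zero set at 0.25 CPM the class held 38 genes, and with presence set at 0.5 CPM it held 35.

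Among the 103 genes called with a rise of at least 4 on the log2 scale, 85 were under 1 CPM in every vector library and 50 were under 0.1 CPM. A gene that low in vector passes the filter only if it is high elsewhere, so these counts describe the class and do not test it. In the 6 shRNA/4OHT libraries, 103 of the 103 were above every vector library. These libraries shared in the fit that made the calls and are set against the same vector libraries, so this too is a description. IL1B, an inflammatory cytokine, was at 0.154, 0.388 and 0.227 CPM in vector and 136, 138 and 137 CPM in vector/4OHT. TNFSF15, a ligand of the tumour necrosis factor family, was at 0.648, 0.728 and 0.453 CPM in vector and 108, 112 and 101 CPM in vector/4OHT. DCSTAMP, a membrane protein needed for the fusion of osteoclasts, rose by 6.62 on the log2 scale (standard error 0.188, adjusted p = 7.26e-11). BMP2, a morphogen of bone and cartilage, rose from 2.25, 1.87 and 1.5 CPM to 148, 141 and 139 CPM. SLC16A6, a transporter of ketone bodies and taurine, was at 7.07, 8.33 and 10.2 CPM in vector and 583, 583 and 543 CPM in vector/4OHT, higher by 6.06 on the log2 scale (standard error 0.185). CDKN2B, which encodes the cell cycle inhibitor p15, was at 12.9 to 14.8 CPM in vector and 308 to 318 CPM in vector/4OHT.

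Steep risers lay beside each other in 10 runs of genes within 100000 bases, as annotated on GRCh38. Some of these runs hold non-coding genes. The share of neighbours among all genes tested was not computed, so the number of runs is no measure of clustering. On chromosome 1, the late cornified envelope genes LCE2C, LCE2B, LCE2A and LCE1F formed a run from 152675295 to 152776728. LCE2A was at 0.679, 0.461 and 0.623 CPM in vector and 15.1, 18.6 and 17.3 CPM in vector/4OHT, while LCE2B and LCE2C stayed under 1 CPM in every vector/4OHT library. On chromosome 4, the chemokine genes CXCL5, CXCL3 and CXCL2 formed a run, as did EREG and AREG, both ligands of the EGF receptor. EREG was at 9.97, 10.9 and 13.7 CPM in vector and 298, 294 and 272 CPM in vector/4OHT. Other runs held IL1A and IL1B, and MMP10 and MMP3, which encode stromelysins. Members of such clusters resemble each other in sequence, and the share of their reads that matches several genes was not tested.

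**Figure D2:**
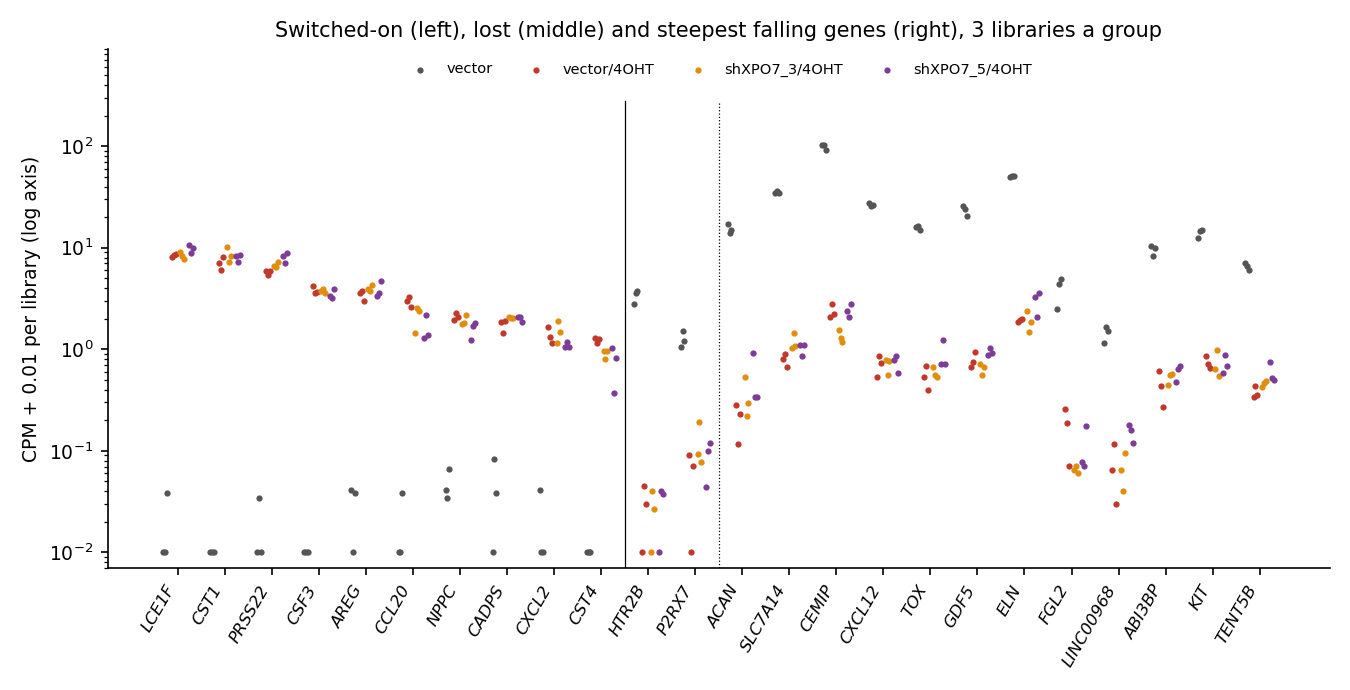
Level in each library of the 10 switched-on genes, the 2 lost genes and 12 further genes among the steepest falls, in CPM plus 0.01 on a log axis, with 3 libraries in each of 4 groups. For every gene shown, the 9 libraries treated with 4OHT lie on 1 side of the 3 vector libraries.

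Fewer genes were lost to near zero. Of 12332 genes with at least 1 CPM in every vector library, 2 were under 0.1 CPM in every vector/4OHT library, and 48 were under 10% of their vector mean. HTR2B (ENSG00000135914; chromosome 2, 231108230 to 231125118), the serotonin receptor 2B, was at 2.75, 3.59 and 3.77 CPM in vector and 0, 0.0354 and 0.0202 CPM in vector/4OHT, from 370 counts to 2. It was 194-fold lower (95% counting interval 53.4 to 1611) and stayed at or under 0.0302 CPM in the 6 shRNA/4OHT libraries. P2RX7 (ENSG00000089041; chromosome 12, 121132819 to 121188032), an ion channel gated by extracellular ATP, went from 138 counts to 6 and was 24.2-fold lower (10.8 to 67.0). In the shRNA/4OHT libraries it reached 0.181 CPM, below every vector library. Just outside the class, PRELP, a matrix proteoglycan, was at 1.39 to 2.07 CPM in vector and 0.101 to 0.142 CPM in vector/4OHT. The class is small and its number follows the threshold. It held 17 genes with near zero at 0.25 CPM, and 4 genes without vector replicate T.

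The steepest falls among genes with at least 1 CPM in every vector library included ACAN, CEMIP, ELN, GDF5 and ABI3BP, which act in the extracellular matrix or its tissues, and genes of other roles. ACAN, which encodes the cartilage proteoglycan aggrecan, was at 17.3, 13.8 and 14.9 CPM in vector and 0.273, 0.106 and 0.222 CPM in vector/4OHT, 1.31% of the vector mean. CEMIP, a protein that breaks down hyaluronan, fell from 102, 102 and 91.2 CPM to 2.05, 2.80 and 2.22 CPM. ELN, which encodes elastin, fell from 49.8, 51.4 and 51.3 CPM to 1.86, 1.91 and 1.96 CPM. The level of GDF5, a growth factor of joints, fell by 4.89 on the log2 scale (standard error 0.149, adjusted p = 1.19e-10). ABI3BP, a matrix protein, fell by 4.51. SLC7A14, a lysosomal member of the cationic amino acid transporter family, went from 34.9, 36.4 and 34.9 CPM to 0.792, 0.886 and 0.665 CPM. CXCL12, the chemokine that draws haematopoietic cells to stroma, went from 27.3, 25.6 and 26.1 CPM to 0.519, 0.850 and 0.726 CPM. TOX, a DNA-binding protein of lymphocyte development, was at 14.8 to 16.3 CPM and then 0.383 to 0.673 CPM. KIT, the receptor of stem cell factor, was at 12.5 to 14.9 CPM and then 0.645 to 0.847 CPM. All 24 genes called with a fall of at least 4 on the log2 scale were below every vector library in the 6 shRNA/4OHT libraries. This is a description, since those libraries shared in the fit and the vector libraries are the ones that chose the genes.

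Counted in TMM-scaled CPM, the gains and losses were spread over many genes. Gains summed to 170611 CPM and losses to 118794 CPM, which scaled levels need not balance. The 10 largest gains made up 15.8% of the gains in CPM summed over all genes, and the 10 largest losses 14.9% of the losses. The inhibitor of metalloproteases TIMP1 gained 3698 CPM, from 957, 893 and 861 CPM to 4481, 4595 and 4730 CPM. The collagenase MMP1 gained 3553 CPM, and STC1, the secreted glycoprotein stanniocalcin 1, gained 3404 CPM from a vector mean of 142. PLAU (urokinase), the phosphate transporter SLC20A1, the Wnt carrier WLS and the metalloprotease ADAM19 were also among the 10 largest gains, with log2 fold changes of 2.46, 2.77, 2.46 and 3.07. FN1, which encodes fibronectin, was among them by size of gain but was not called, with 20890 to 25400 CPM in vector and 22540 to 27619 CPM in vector/4OHT, ranges that overlapped. The largest loss was that of COL1A2, a chain of collagen I, from 8043, 7402 and 6980 CPM to 3583, 3198 and 3268 CPM. COL1A1, the other chain, fell by 0.45 on the log2 scale (standard error 0.128, adjusted p = 0.0107). ACTB, ACTG1, FLNA, MYH9 and TUBB, which encode actins, filamin A, the heavy chain of non-muscle myosin and a tubulin, were the cytoskeletal genes among the 10 largest losses. TUBB fell from 2569, 2348 and 2210 CPM to 1213, 1264 and 1320 CPM.

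The genes tested were also read by 45 lists of families and pathways outside the cell cycle and the SASP. For each list, the share of members called is to be set against the background of 24.8% called higher and 26.1% called lower among all genes tested.

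Lists of protein synthesis leaned upward, with small changes. Of 49 ribosome biogenesis genes tested, 32 were called higher and 2 lower, with a median log2 fold change of 0.36. With upper-quartile factors 22 were called higher (median 0.26), and without vector replicate A or vector/4OHT replicate A 25 were. The 2 called lower became 1 without vector replicate T or without vector/4OHT replicate T or A. DDX10, an RNA helicase of pre-rRNA processing, was at 21.4, 23.3 and 24.8 CPM in vector and 63.9, 64.6 and 61.7 CPM in vector/4OHT, the largest rise in the list (1.45). RRP12 and the RNA polymerase I factor RRN3 rose by 0.96 and 0.89, while FBL, the rRNA methyltransferase fibrillarin, fell by 0.51. Of 20 tRNA synthetases, 12 were called higher and AARS1 lower (-0.33), with a median of 0.47. TARS1, which charges threonine tRNA, rose from 158, 193 and 204 CPM to 373, 412 and 382 CPM. Mitochondrial ribosomal proteins had 31 of 75 called higher and 7 lower (median 0.15). With upper-quartile factors 20 were higher (median 0.06), and 4 were lower without vector replicate T or without vector/4OHT replicate T or A. Translation factors had 16 of 53 higher (30.2%, near the background) and 7 lower (13.2%, median 0.12). With upper-quartile factors 11 were higher (median 0.02). Heat shock proteins and chaperonins had 28 of 71 higher and 12 lower (median 0.18), and within them the small heat shock proteins HSPB6 and HSPB7 fell by 1.94 and 2.72. The number higher in this list was 23 with upper-quartile factors (median 0.08) and 21 without vector/4OHT replicate B. The proteasome had 14 of 45 higher (31.1%, near the background) and 4 lower (8.89%, median 0.11). It had 7 higher with upper-quartile factors and 9 without vector replicate A or without vector/4OHT replicate B. The members that fell included PSMB9 and PSMB8, catalytic subunits of the immunoproteasome, with log2 fold changes of -2.11 and -0.41. The call of PSMB8 was lost without vector replicate T and without vector/4OHT replicate T or A. Of 89 splicing factors, 10.1% were called higher and 29.2% lower (9 and 26 genes, median -0.09), the latter near the background. The number called higher was 14 with the replicate block.

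Of the 13 protein genes encoded by mitochondrial DNA, 8 were called higher and 0 lower, with a median of 0.21. MT-ND2, a subunit of complex I, rose from 982, 1094 and 1152 CPM to 1452, 1511 and 1542 CPM. The count was 3 of 13 when GC content and length were corrected for and 3 of 13 with upper-quartile factors.

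Tubulins, annexins and targets of the mechanosensitive coactivators YAP and TAZ leaned downward. Of 18 tubulins, 11 were called lower and 2 higher (median -0.45). The exceptions were TUBE1 and TUBD1, the epsilon and delta tubulins of centrioles, with log2 fold changes of 1.08 and 0.44, and TUBD1 lost its call without vector replicate A, vector replicate T, vector/4OHT replicate A or vector/4OHT replicate B. Of 9 annexins, which bind membranes in response to calcium, 7 were called lower and 0 higher (median -0.57), with ANXA5 at 1977, 1811 and 1784 CPM in vector and 1070, 1102 and 1162 CPM in vector/4OHT. Of 24 YAP and TAZ targets, 18 were called lower and 5 higher (median -0.64), with 3 higher without vector replicate A or vector/4OHT replicate A. AXL, a receptor tyrosine kinase, fell from 560, 496 and 461 CPM to 148, 147 and 151 CPM. The matrix protein CCN1 fell from 346, 314 and 304 CPM to 148, 146 and 151 CPM, and CCN2 by 0.21 on the log2 scale. F3, tissue factor, moved against the list, from 112, 115 and 111 CPM to 606, 592 and 609 CPM. Of 22 myosins, 7 were called lower and 4 higher (median -0.09), with 7 each way under the replicate block. MYH10, a heavy chain of non-muscle myosin, fell by 1.68, while the unconventional myosin MYO1D rose by 3.67.

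Channels and transporters changed in both directions, with large changes of single members. Of 33 potassium channels, 15 were called lower and 10 higher, with a median of -0.62 and quartiles of -1.60 and 0.84. The balance and the sign of the median of this list held in each of the 15 alternatives. KCNK2, a background channel that responds to stretch, fell from 54.9, 55.0 and 55.6 CPM to 5.11, 5.07 and 5.71 CPM. The inward rectifiers KCNJ8 and KCNJ2 each fell by 2.47, whereas KCNJ15 of the same family rose by 3.86 and the voltage-gated KCNH6 by 4.50. TRPA1, a calcium-permeable channel for irritants, was at 81.4, 101 and 108 CPM in vector and 777, 786 and 733 CPM in vector/4OHT, a rise of 2.98. Its list of 40 calcium and TRP channels had 12 higher and 11 lower, a balance that turned with upper-quartile factors, with the replicate block and without vector replicate C. Of 236 solute carriers, 80 were called higher and 63 lower, and with upper-quartile factors more were lower than higher. SLC6A15, a carrier of branched-chain amino acids and proline, rose from 36.9, 43.3 and 47.3 CPM to 696, 687 and 667 CPM. SLC8A1, the sodium and calcium exchanger, fell by 2.36. Among ABC transporters, ABCB1, the multidrug pump, rose from 0.803, 0.801 and 0.821 CPM to 8.11, 8.54 and 7.60 CPM, and ABCG1, a cholesterol exporter, rose by 3.33, while ABCC3 and ABCC9 fell by 2.48 and 2.36.

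Receptors changed in both directions. Of 97 G-protein coupled receptors tested, 41 were called higher and 33 lower, a balance that turned or evened out with upper-quartile factors and without vector/4OHT replicate B. FZD8, a Wnt receptor, rose from 4.29, 3.93 and 3.06 CPM to 71.6, 70.2 and 66.9 CPM. GPR183, which senses oxysterols, was at or under 0.113 CPM in vector and at 4.10, 6.20 and 5.56 CPM in vector/4OHT. The somatostatin receptor SSTR1 fell by 3.64 and the oxytocin receptor OXTR by 2.84. RGS proteins, which switch off G-protein signals, had 10 of 15 called higher and 4 lower (median 0.38), with RGS16 the largest rise (2.85). Without vector replicate A, or without vector/4OHT replicate A or B, 7 of the RGS genes were called higher. Receptor tyrosine kinases outside the main growth factor families had 10 of 18 called lower and 4 higher (median -0.33). KIT, AXL and the Wnt5a receptor ROR2 fell by 4.26, 1.77 and 1.85, and TIE1, a receptor of vessels, rose from 0.957, 1.14 and 1.08 CPM to 6.91, 5.42 and 6.29 CPM.

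Of 16 genes of retinoid handling tested, 9 were called higher and 4 lower, with a median log2 fold change of 0.83. With no filter beyond 1 count, 21 were tested, the same numbers were called and the median was 0.13. The retinol dehydrogenase RDH10, which makes retinaldehyde, rose from 25, 24.7 and 23.3 CPM to 76.2, 74.9 and 75.8 CPM. The retinaldehyde reductase DHRS3 rose by 1.57. STRA6, the receptor for retinol uptake, was at 0.0926, 0.0728 and 0.0566 CPM in vector and 0.355, 0.744 and 0.444 CPM in vector/4OHT. CYP26B1, which breaks down retinoic acid, was at 0 to 0.0926 CPM in vector and 0.708 to 0.968 CPM in vector/4OHT, and the receptor RARB rose by 2.45. The genes that fell were the retinoic acid carrier CRABP2 (-1.11) and the receptors RARG (-0.82), RXRA (-0.44) and RXRB (-0.26). Nuclear receptors had 14 of 32 called lower and 8 higher (median -0.09). PPARG, the master regulator of fat cells, fell from 47.8 to 53.8 CPM to 11.9 CPM in each vector/4OHT library. Of 20 circadian clock genes, 9 were called lower and 5 higher. The clock output factor DBP and the period gene PER3 fell by 2.28 and 1.94, while the repressor BHLHE40 rose from 38.3, 38.9 and 34.4 CPM to 223, 224 and 231 CPM.

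The sensors and effectors of innate immunity leaned downward. Of 36 genes tested, 17 were called lower and 5 higher, with a median of -0.32. The 5 called higher became 2 without vector/4OHT replicate B or with upper-quartile factors, and 3 without vector replicate A or C. The caspase CASP1 and the pore-forming GSDMD, both of the inflammasome, fell by 1.69 and 1.40. The double-stranded RNA receptor TLR3 went from 0.772, 1.24 and 1.36 CPM to 0.0819, 0.0708 and 0.0605 CPM. NOD1, a sensor of bacterial cell walls, fell by 1.68. CASP4, the caspase that binds bacterial lipopolysaccharide, rose from 83.4, 86.3 and 86.9 CPM to 122, 134 and 135 CPM, and the kinase IRAK2, which acts below interleukin-1 and Toll-like receptors, rose by 0.59.

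Junction, surface and metabolic genes gave mixed lists with steep single changes. Claudins, connexins and desmosomal genes had 10 of 24 called lower and 7 higher (median -0.54), a balance that held in each of the 15 alternatives. CLDN11 fell from 408, 391 and 360 CPM to 31.5, 31.2 and 31.9 CPM, and CLDN1 rose from 68.1, 70.4 and 70.5 CPM to 261, 251 and 236 CPM. The tetraspanin CD82 rose by 2.24. Of 85 glycosyltransferases and sulfotransferases, 27 were called higher and 33 lower, a balance that turned with the GC and length correction. The chondroitin sulfotransferase CHST11 rose by 2.78 while GALNT15, which starts O-glycans, fell by 3.46. ANGPTL4, an inhibitor of lipoprotein lipase, rose from 15.9, 14.5 and 14.2 CPM to 165, 167 and 171 CPM in a lipid list with 6 called each way of 19. Proteins of regulated secretion such as UNC13A and RAB3A rose by 3.61 and 2.28, within a synaptic list of 58 that had 17 called higher and 14 lower, without that lead with upper-quartile factors and without vector replicate A or vector/4OHT replicate B. SLIT2 and NTN4, guidance cues of axons, fell by 2.53 and 2.25, and the receptor ROBO4 rose by 3.50.

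Among regulators of transcription, 101 of 461 ZNF genes were called higher (21.9%) and 68 lower (14.8%). Both shares were under the background of 24.8% and 26.1%. With upper-quartile factors more of the ZNF genes were called lower than higher. Developmental transcription factors had 28 of 73 lower and 21 higher. OSR1 and PRRX2, of mesenchymal development, fell by 2.06 and 2.24, and FOXC1 and SOX4 rose by 1.10 and 1.05. KLF4 and KLF2, factors that respond to flow and growth arrest, fell by 2.59 and 2.22. PRDM1, the repressor that drives the terminal differentiation of plasma cells, rose from 8.83, 7.55 and 7.99 CPM to 87.8, 89.6 and 86.2 CPM. The lysine methyltransferase NSD2 and the deacetylase HDAC5 fell by 1.75 and 1.43, in a list of 77 chromatin enzymes with 12 called higher (26 with the GC and length correction) and 23 lower.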

How the data were processed

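The 12 RNA-seq libraries (IMR90 ER:RAS cells, 3 in each of 4 groups) were grouped by their sample labels; the name vector comes from the study, and the labels of those libraries name no shRNA. Library preparation used a stranded mRNA kit. Per the submitters' processing notes, TopHat2 2.0.11, CASAVA 1.8.4 and featureCounts 1.18.0 were used with hg19 and GRCh37, and the authors deposited raw counts per gene. Which annotation and strand setting were used, and how reads matching several genes were treated, is not given in the sources used here; counts of antisense, overlapping or near-identical genes are therefore uncertain. Of 62069 genes, 49322 had a symbol, holding 99.48% of the counts, and 92 spike-in entries were 0 in every library. GENCODE 29 is on GRCh38, so genes were matched by identifier only.

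Counts of all 12 libraries were fitted with edgeR 4.0.16 in R 4.3.3 (filterByExpr, TMM, quasi-likelihood test, 4 groups, no covariate; the study names no test), contrast vector/4OHT against vector, with Benjamini-Hochberg adjustment over 15284 genes. Libraries of the same group differed by more than counting error (chi-square of 4.33 to 45.02 per gene), so none was the same library read again. This does not tell whether they came from separate cultures. Counts were also simulated with 200 changed genes among 15070 tested. The test called 30.2% of those with a log2 change of 0.5, 78.1% at 1 and 89% at 2, and 5.63% of calls were unchanged genes. Far more genes were called in the data than were changed in the simulation, so these shares do not give the power in the data.

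Switched-on and lost genes were defined by the CPM limits in the text. Lists came from gene family symbols or textbook membership. Beside checks and genes near the class limits, genes named were the switched-on and lost genes, the steepest called changes at a mean log2 CPM of 2 or more, the 10 largest gains and losses in CPM, and up to 3 called members each way per list; the late cornified envelope genes other than LCE1F, EREG, BMP2, CDKN2B, DCN, KRT19, STRA6, CYP26B1, RARB, TLR3, CCN1, CCN2, PDZD2, CSF2, TBX21, IVL, FASLG, PRELP and RXRB were named after their values were seen. EPCAM, KRT8 and KRT18 were also named after their values were seen. The members and lists were chosen with earlier results of these data known. Alternatives were RLE and upper-quartile factors, other filters, a 2-group fit, the replicate letter as a block, each library left out, DESeq2 1.42.0, a GC and length correction, a test against a log2 fold change of 1, and other CPM limits. Some genes and 1 list are not reported here.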

Additional observations from a re-analysis of the deposited data

How the results depend on the processing

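The number of genes called between vector/4OHT and vector ran from 6762 to 7421 with 1 library left out, and from 7068 to 9753 under the other alternatives that keep the null of no change; a test against a log2 fold change of 1 called 1513. Genes called with a change of at least 1 on the log2 scale numbered 1985 to 3002 over all alternatives (2556 to 2711 with 1 library left out), beside 2573. With upper-quartile factors the overall median was -0.105 on the log2 scale and 38.3% of calls were higher, against 48.8% with TMM. The replicate letters T and A were shared by both groups, with correlations of 0.204 and 0.212 between same-lettered libraries and of -0.294 to 0.214 between others, too few pairs to treat the letters as a pairing. With the replicate letter as a block, 7987 genes were called in the fit to 12 libraries, and 8417 in a fit to 6 libraries added after the data were seen.

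The switched-on class held 38 genes with near zero at 0.25 CPM, 35 with presence at 0.5 CPM and 6 with presence at 2 CPM, and 11 to 13 with 1 library left out. The lost class held 1 gene with near zero at 0.05 CPM, 17 at 0.25 CPM, 9 with presence at 0.5 CPM and 1 at 2 CPM, and 2 to 4 with 1 library left out. List members called numbered 1289, and 1122 to 1588 over the alternatives (1122 to 1218 with 1 library left out). In 29 of 45 lists, the balance of higher against lower calls kept its direction in each of the 15 alternatives. Of 333 genes computed one by one, 13 lost their call in at least 1 of 14 alternatives. None changed sign while called in the main fit or in the alternative, and sign changes of genes called in neither were not counted. Depth limits the class of switched-on and lost genes, whose near-zero side rests on 0 to 6 counts over 3 libraries. The finding of small changes is limited by 3 libraries a group, to an extent that was not measured.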

Other observations

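Gene types differed in how often their members were called, as GENCODE 29 types them. Of 12886 protein-coding genes tested, 26.9% were called higher and 27.3% lower. Of 454 lincRNA genes, 22.7% were called higher and 17.2% lower, and of 598 antisense genes 13.2% and 20.9%. Of 313 processed pseudogenes, 4.79% were called higher and 13.1% lower. The types differ in expression level, which limits what can be called, and its part in these shares was not tested.

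A run of 3 non-coding genes on chromosome 1, LINC01655, LINC02257 and LINC01705, from 221827666 to 222064763 on GRCh38, rose together by at least 4 on the log2 scale. Mean levels in vector and vector/4OHT were 0.0206 and 0.561 CPM for LINC01655 and 0.0373 and 1.13 CPM for LINC02257. For LINC01705 they were 0.162 and 8.05 CPM. The rises of LINC01655 and LINC02257 thus start from near zero and rest on few reads. GABRA2, a subunit of the GABA-A receptor of neurons, rose from 9.17, 13.2 and 13.8 CPM in vector to 257, 248 and 221 CPM in vector/4OHT and was at 162 to 251 CPM in the shRNA/4OHT libraries. ALK, a receptor tyrosine kinase of the developing nervous system, had 0.0309, 0 and 0 CPM in vector and 0.656, 0.354 and 0.504 CPM in vector/4OHT. TREM1, a receptor of myeloid cells, had no count in vector and 0.765, 0.850 and 0.786 CPM in vector/4OHT. ADH1B, an alcohol dehydrogenase, went from 0.648, 0.558 and 0.680 CPM to 0.0273, 0 and 0 CPM. These genes were chosen after their values were seen.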
